A study of Mus musculus with 12 samples.

Results

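Transcripts of 10 genes of the Notch pathway were followed through a supernatant transfer between mouse stellate and tumour cells. They comprise the receptors Notch1, Notch2 and Notch3, the ligands Jag1 and Dll1, and the target genes Hes1, Hey1, Hey2, Heyl and Nrarp. The set was named by gene symbol without a cutoff on a measured value, but it was chosen with earlier results of these data known. Of the 10 genes, 9 were in the count table of the stellate cells, which holds 16386 genes, and 8 in that of the tumour cells, which holds 15309. Heyl is not analysed here, and Hey2 is not analysed here in the tumour cells.

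PSC4 is a mouse pancreatic stellate cell line and KPC4 a mouse pancreatic adenocarcinoma line, and each stands for its cell type by a single line. Stellate cells are the pancreatic stromal cells that can become fibroblasts. Gemcitabine is a nucleoside analogue used as chemotherapy for pancreatic cancer. KPC4 cells received vehicle or 10 µM gemcitabine for 6 h, were washed, and conditioned starvation medium for 14 h, which gave Control-SU from the vehicle cells and Gem-SU from the gemcitabine cells. PSC4 cells were kept in either supernatant for 24 h. For the second step, other PSC4 cells spent 6 h in Control-SU or Gem-SU, were washed, and conditioned new starvation medium for 18 h, and the media they made are named Control-PSC-SU or Gem-PSC-SU. New KPC4 cells stayed in either of these for 24 h. No KPC4 library came from cells that had themselves been given gemcitabine, and drug carried over in the medium cannot be told apart from factors released by the donor cells. Each of the 4 groups had 3 libraries, labelled as biological replicates.

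Notch receptors are cleaved when a ligand on a neighbouring cell binds them, and the freed intracellular part enters the nucleus, joins the DNA-binding protein RBPJ and switches on target genes. Among these targets the Hes and Hey genes encode transcriptional repressors, and Nrarp encodes a small protein that limits the signal. In the pancreas the pathway is best known from progenitor and ductal cells, and in vessels from endothelial and mural cells, where Hey2, Heyl and Notch3 are usual.

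The RefSeq promoter table (assembly GRCm38.p6, a different build from that in the submitters' processing notes) held windows for 7 of the 10 genes, each running from 250 bases before to 50 bases after an annotated transcript start. Hes1, Hey1 and Heyl had no window there. The letters TGGGAA, the core that RBPJ binds, were searched on both strands, where the reverse strand gives TTCCCA. They occurred in 25.6% of all 32851 windows, and at least 2 times in 3.79%. Of the genes described here with a window, Hey2 alone held them, with 2 matches, while Notch1, Notch2, Notch3, Jag1, Dll1 and Nrarp held 0. The Hey2 matches start at -207 on the reverse strand and at -3 on the gene's strand, counted from the transcript start. Both extend to the longer GTGGGAA, which overlaps the core and was in 6.38% of windows, with at least 2 matches in 84 windows (0.256%). The 4 windows shown are those of the target gene with the largest rise in PSC4, of the receptor and the ligand whose responses differed between the lines, and of a target nearly silent in PSC4. Each is written 5′ to 3′ on the strand of its gene, with matches to the core in capitals. They lie at chr10:30842734-30843033 on the minus strand (Hey2), chr2:26503773-26504072 on the minus strand (Notch1), chr2:137116471-137116770 on the minus strand (Jag1) and chr2:25180508-25180807 on the plus strand (Nrarp). The E-box forms CACGTG and CACGCG (reverse strand CGCGTG), which Hes and Hey repressors can bind, were searched likewise on both strands. CACGTG was in 7.15% of windows and, of these genes, in that of Nrarp at -108. CACGCG was in 9.27% of windows, with 2 matches for Jag1 (at -249 and -171) and 1 each for Notch2 and for 1 of the 2 Dll1 windows. Among the 12889 windows of genes tested in PSC4, 23.3% held the core, 6.07% GTGGGAA, 9.58% CACGTG and 16.5% CACGCG. A match describes letters only, and a window without one says nothing of binding elsewhere.
Hey2: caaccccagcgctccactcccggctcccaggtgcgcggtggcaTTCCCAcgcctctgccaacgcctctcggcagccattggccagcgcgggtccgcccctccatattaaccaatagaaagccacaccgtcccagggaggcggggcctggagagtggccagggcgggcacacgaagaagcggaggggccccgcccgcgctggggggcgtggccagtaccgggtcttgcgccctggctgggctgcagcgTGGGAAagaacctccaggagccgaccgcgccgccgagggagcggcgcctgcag
Notch1: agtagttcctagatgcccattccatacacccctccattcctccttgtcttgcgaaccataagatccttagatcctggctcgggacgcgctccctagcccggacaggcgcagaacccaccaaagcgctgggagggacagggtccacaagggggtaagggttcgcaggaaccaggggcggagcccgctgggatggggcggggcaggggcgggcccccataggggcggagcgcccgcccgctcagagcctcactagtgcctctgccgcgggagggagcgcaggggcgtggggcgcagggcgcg
Jag1: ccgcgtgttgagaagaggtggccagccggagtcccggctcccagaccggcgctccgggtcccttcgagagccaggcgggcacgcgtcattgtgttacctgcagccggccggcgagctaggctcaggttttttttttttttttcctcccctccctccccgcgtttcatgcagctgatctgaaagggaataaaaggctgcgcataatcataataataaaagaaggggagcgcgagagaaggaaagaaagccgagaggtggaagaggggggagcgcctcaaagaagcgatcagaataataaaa
Nrarp: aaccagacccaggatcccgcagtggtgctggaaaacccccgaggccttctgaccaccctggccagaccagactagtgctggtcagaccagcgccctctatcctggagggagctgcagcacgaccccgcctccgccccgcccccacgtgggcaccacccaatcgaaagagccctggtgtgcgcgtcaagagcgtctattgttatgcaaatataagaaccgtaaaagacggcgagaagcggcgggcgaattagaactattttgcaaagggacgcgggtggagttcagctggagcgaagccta

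The 12 libraries held between 26354328 and 38138356 counts in total. Replicate libraries of the same group were farther apart than counting error allows in each pair (lowest chi-square over its degrees of freedom 32.0). Levels are given as CPM, counts scaled to library totals that were adjusted by TMM factors, computed over all 12 libraries so that both lines share a scale. Of 12 stellate cell and fibroblast markers, 11 were in the PSC4 table, with a summed level of 6114 to 7504 CPM under Control-SU and 17.4 to 33.5 CPM in KPC4. The sum over the epithelial marker list was 15.6 to 21.7 CPM in PSC4 and 5999 to 7682 CPM in KPC4, so that each line carried the markers of its label. Its members Epcam and Cdh1 were not analysed here in PSC4, and Cldn7 was at 0 in all Gem-SU libraries of PSC4. Fewer cells expressing a gene and less RNA per cell cannot be told apart in such bulk libraries.

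The first comparison asked how the Notch genes of PSC4 differ after Gem-SU rather than Control-SU. The receptor Notch1, the ligands Jag1 and Dll1, and the targets Hes1 and Hey2 rose, Notch1 by 4.72-fold and Hey2 from next to no counts. Notch3 rose less, and Notch2 and Hey1 did not pass the test. Of the 8 genes tested, 6 were higher and 0 lower by the edgeR quasi-likelihood test (Benjamini-Hochberg over all 13347 genes, threshold 0.05). Over all genes tested 24.3% were called higher and 22.0% lower, 46.3% in either direction. Hey2 was kept by the low-count filter only through its Gem-SU libraries, and of the 7 other genes 5 were higher. With Hey2 set aside, the middle log2 fold change of these 7 genes was that of Dll1, 1.55, against a median of -0.0032 over all genes.

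**Figure D1:**
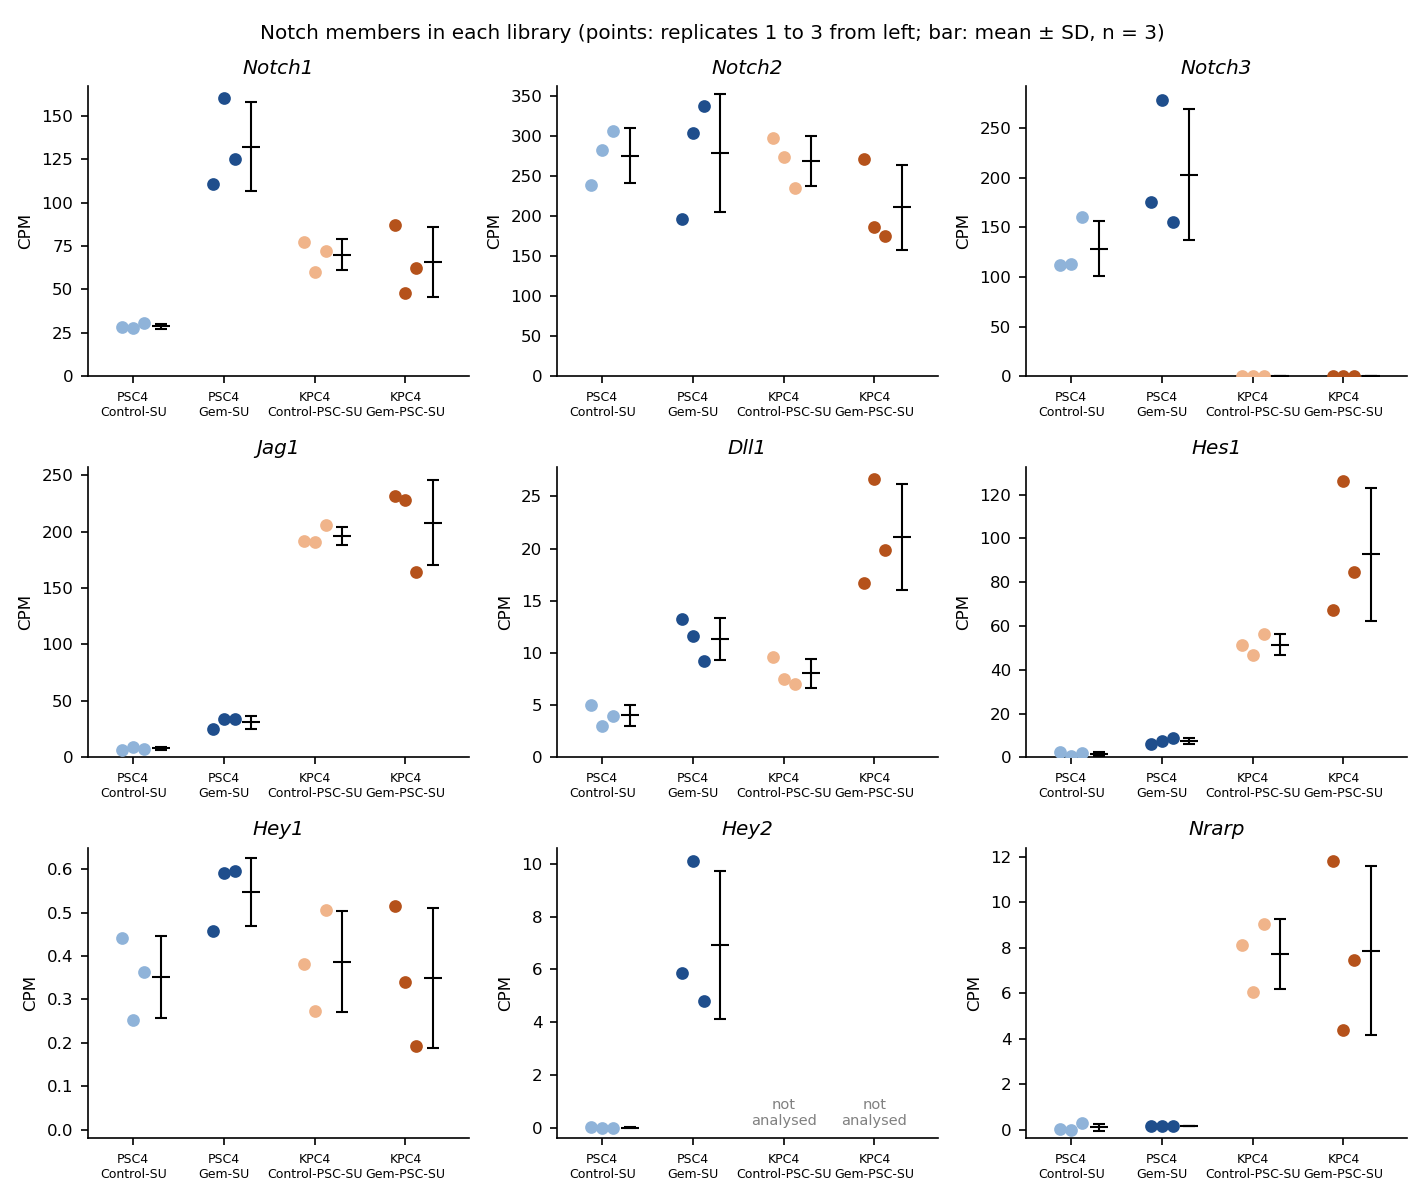
Level of 9 Notch pathway genes in each of the 12 libraries, in CPM on a linear axis that differs between genes; points are replicates 1 to 3 from left to right and bars the mean ± SD (n = 3). In PSC4 the Gem-SU points of Notch1 lie between 111 and 161 CPM, above all Control-SU points at 27.8 to 30.6 CPM, and Hey2 is near 0 in all Control-SU libraries.

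Notch1 (ENSMUSG00000026923) was at 28.2, 27.8 and 30.6 CPM in the 3 Control-SU libraries of PSC4. Under Gem-SU it was at 111, 161 and 125 CPM. All Gem-SU libraries were thus far above all controls, with means of 28.9 ± 1.47 and 132 ± 25.6 CPM (SD, n = 3 each). Groups without overlap, in either direction, were found for 56.4% of all genes tested in PSC4, which also stands beside Jag1, Dll1 and Hes1 below. The log2 fold change was 2.24 (standard error 0.17, edgeR quasi-likelihood adjusted p = 6.13e-05).

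Notch2 (ENSMUSG00000027878), which shares the ligands of Notch1, was at 238, 282 and 305 CPM with Control-SU. It was at 196, 303 and 337 CPM with Gem-SU, and the groups overlapped throughout. Its log2 fold change was 0.06 (standard error 0.22, edgeR quasi-likelihood adjusted p = 0.825).

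Notch3 (ENSMUSG00000038146), the receptor usual in mural cells, was at 112, 113 and 161 CPM with Control-SU. With Gem-SU it was at 176, 278 and 155 CPM. Replicate 2 of Gem-SU was the highest, and replicate 3 of Gem-SU lay below replicate 3 of the controls on this scale. Notch3 was higher by 0.71 on the log2 scale (standard error 0.25, edgeR quasi-likelihood adjusted p = 0.0436). The call was lost without Gem-SU replicate 2 (0.42, adjusted p = 0.180), without Control-SU replicate 1 (0.61, adjusted p = 0.120), without Control-SU replicate 2 (0.60, adjusted p = 0.131) and in a fit of all 12 libraries (0.66, adjusted p = 0.150).

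The make-up of the receptor pool followed from these values. Per kb of transcript, the 3 receptors summed to 45.3 ± 6.49 CPM per kb with Control-SU and 65.8 ± 14.1 CPM per kb with Gem-SU in PSC4 (SD, n = 3 each), with ranges that overlapped only between 52.3 and 52.4 CPM per kb. Notch1 made up 6.15 to 7.51% of that sum with Control-SU and 20.4 to 22.3% with Gem-SU. Notch2 made up 58.0% ± 2.88 and 40.4% ± 8.02, and Notch3 35.2% ± 3.07 and 38.3% ± 7.32 (SD, n = 3 each). The share of Notch1 was higher in all Gem-SU libraries, the share of Notch2 was lower in all of them, and the shares of Notch3 overlapped.

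**Figure D2:**
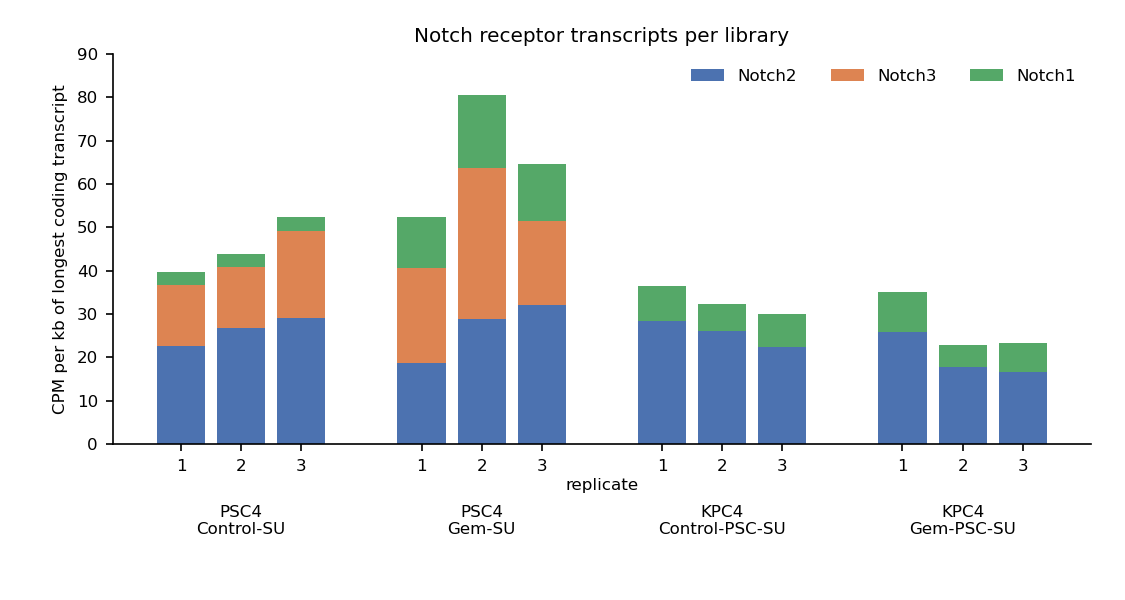
Summed receptor transcripts in each library, in CPM per kb of the longest coding transcript, stacked as Notch2, Notch3 and Notch1 from the base; each bar is 1 library and the axis starts at 0. The Notch1 segment widens from at most 7.51% of the bar in Control-SU to at least 20.4% in Gem-SU libraries of PSC4, and the Notch3 segment is too thin to be seen in KPC4.

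Both ligands rose in PSC4. Jag1 (ENSMUSG00000027276), a ligand of the Jagged family, was at 6.50, 9.42 and 7.72 CPM with Control-SU. It was at 24.7, 34.0 and 33.9 CPM with Gem-SU, each above every control. The log2 fold change was 2.01 (standard error 0.22, edgeR quasi-likelihood adjusted p = 2.81e-04).

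Dll1 (ENSMUSG00000014773), a ligand of the Delta family, was at 5.06, 3.04 and 3.93 CPM with Control-SU. With Gem-SU it was at 13.2, 11.7 and 9.23 CPM, again with no overlap. The log2 fold change was 1.55 (standard error 0.26, edgeR quasi-likelihood adjusted p = 0.00180). Per kb of transcript both ligands together went from 2.52 ± 0.0493 to 8.67 ± 0.618 CPM per kb (SD, n = 3 each). Jag1 made up 55.7% ± 10.7 of that sum with Control-SU and 63.2% ± 8.02 with Gem-SU, shares that overlapped.

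Among the targets, Hes1 (ENSMUSG00000022528), a repressor that Notch induces in many tissues, had 86, 19 and 57 counts in the Control-SU libraries, or 2.53, 0.601 and 1.88 CPM. With Gem-SU it was at 6.04, 7.62 and 8.80 CPM. All Gem-SU libraries were above all controls, and control replicate 2 was the lowest. The log2 fold change was 2.21 (standard error 0.46, edgeR quasi-likelihood adjusted p = 0.00511), and it lay between 1.79 and 2.64 when single libraries were left out.

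Hey2 (ENSMUSG00000019789), a repressor of the Hairy family, had 1, 0 and 0 counts with Control-SU. With Gem-SU it had 232, 342 and 145 counts, or 5.88, 10.1 and 4.80 CPM. Control libraries were thus at or below 1 count while all Gem-SU libraries had over 100. Against a floor of 3 counts in each control library, Hey2 was at least 73.7-fold higher, and this bound lay between 56.8 and 85.0 when single libraries were left out.

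Hey1 (ENSMUSG00000040289), its close relative, stayed near the floor, with 15, 8 and 11 counts under Control-SU and 18, 20 and 18 counts under Gem-SU. Its libraries did not overlap, which was so for 56.4% of all genes tested, and the difference did not pass (log2 fold change 0.67, standard error 0.51, edgeR adjusted p = 0.313). Nrarp (ENSMUSG00000078202) had 1, 0 and 9 counts under Control-SU and 7, 6 and 5 under Gem-SU. It was below the low-count filter and was not tested, and a difference was not detectable at this depth.

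The authors' deposited table for PSC4 listed log2 fold changes of 2.31 for Notch1, 0.04 for Notch2, 0.69 for Notch3, 1.98 for Jag1, 1.28 for Dll1, 2.18 for Hes1, 0.25 for Hey1 and 9.28 for Hey2. The value for Hey2 there is set against controls that are nearly empty.

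**Figure D3:**
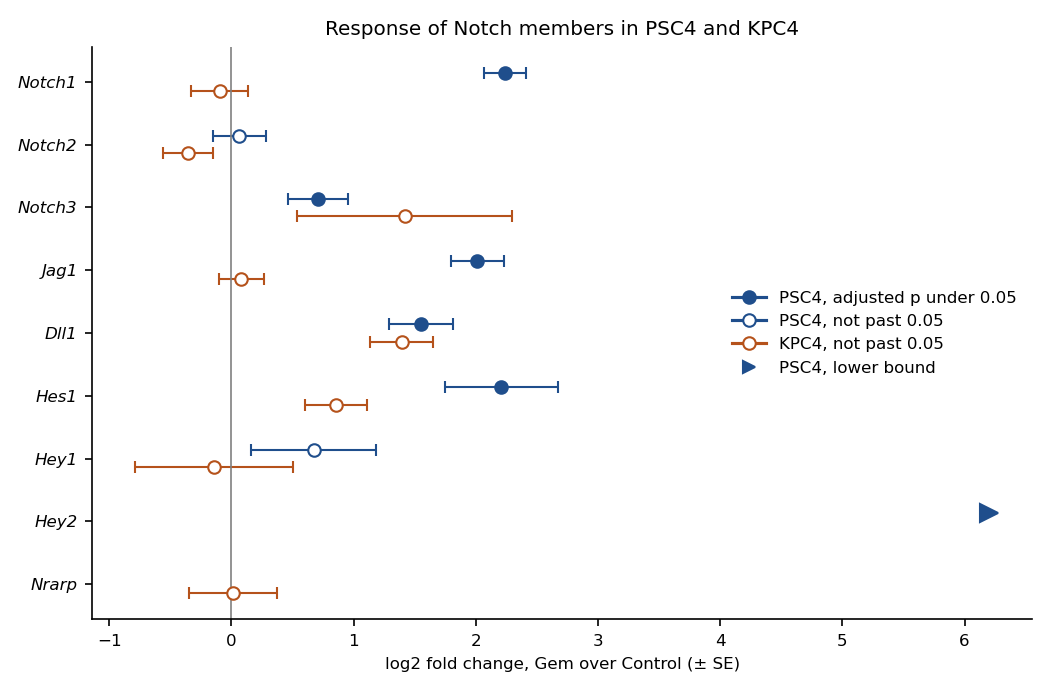
Log2 fold change of each gene, Gem-SU over Control-SU in PSC4 (blue) and Gem-PSC-SU over Control-PSC-SU in KPC4 (orange), with the standard error from edgeR; filled points passed an adjusted p of 0.05, and the triangle is the lower bound for Hey2 (6.20). Notch1 and Jag1 sit at 2.24 and 2.01 in PSC4 and at -0.10 and 0.08 in KPC4, while the Dll1 points lie side by side at 1.55 and 1.39.

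Several marker lists moved with this comparison. The stellate and fibroblast markers summed to 1888 to 2890 CPM with Gem-SU, below the control range. Of the 11 with a row 8 were called lower, beside 22.0% of all genes tested. The largest fall was that of Pdgfra (log2 fold change -3.30, edgeR adjusted p = 5.98e-05), a receptor for platelet-derived growth factor. The other 3 did not pass, with Acta2 (0.78, edgeR adjusted p = 0.0538) and Des (0.25) on the higher side and Fap (-0.38) on the lower. The 6 endothelial markers with a row summed to 1.65 to 3.00 CPM with Control-SU and 3.60 to 5.76 CPM with Gem-SU. Of these Kdr, a receptor for vascular endothelial growth factor, rose by 2.58 on the log2 scale (edgeR adjusted p = 0.00339). Pecam1 (1.47, edgeR adjusted p = 0.112) and Vwf, whose CPM was lower in all Gem-SU libraries (-0.90, edgeR adjusted p = 0.226), did not pass, and Cdh5, which defines endothelium, had at most 15 counts in any PSC4 library. The 7 mural markers with a row summed to 11.9 to 15.0 CPM and then 33.2 to 49.6 CPM, nearly all of it Mcam, an adhesion molecule that rose by 1.75 (edgeR adjusted p = 3.43e-04), while Rgs5 had at most 24 counts. In the epithelial list, which summed to 16.2 to 16.6 CPM and then 15.6 to 21.7 CPM, the keratin Krt19 rose by 1.38 (edgeR adjusted p = 0.00441) and the mucin Muc1 fell by 0.79 (edgeR adjusted p = 0.0164). In the difference of response between the lines, 1 of 7 epithelial markers tested passed, Krt19 (1.47, edgeR adjusted p = 0.0127). Of 6 stellate and fibroblast markers tested there, 3 passed with a negative difference and 0 with a positive one. Among all genes 9.85% passed in that test. Leukocyte markers summed to 3.67 to 5.59 CPM and 5.13 to 5.58 CPM. The part of these shifts in the Notch values was not tested.

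The rest of the pathway was taken from a list of 73 other genes in 10 classes. In PSC4, 66 of them were tested, of which 16 were higher, 20 lower and 30 not past the threshold, beside the 24.3% higher and 22.0% lower over all genes. Their median log2 fold change was -0.11. Dll4 and Hes2 were near or at 0 counts in the controls and were kept by the low-count filter only through their Gem-SU libraries, so that their place among the 16 supports nothing. With the other ligands, Dlk2 rose, Dlk1 fell and Jag2 did not pass (1.40, edgeR adjusted p = 0.0797). Dll4, the Delta ligand of vessel tips, had 1, 0 and 0 counts with Control-SU and 29, 30 and 20 with Gem-SU, at least 8.09-fold higher over the floor of 3 counts. Dlk2, an atypical ligand, was higher by 2.17 on the log2 scale. Notch4, the remaining receptor, had 15 to 51 counts in PSC4 and did not pass (edgeR adjusted p = 0.257).

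Of the other Hes genes, Hes2 had 0 counts in all Control-SU libraries and 27, 26 and 24 with Gem-SU, at least 7.96-fold higher over the same floor, and Hes6 did not pass. Of 8 further genes that Notch can activate in some tissues, 4 were higher and 2 lower, beside 24.3% and 22.0% over all genes. So small a class is not read as a pattern. Cdkn1a, a cell cycle inhibitor that is also a standard p53 target, went from 48.3, 32.7 and 34.1 CPM to 949, 1084 and 757 CPM. Myc, Efnb2 and Sox9 rose by 1.73, 1.47 and 1.04 (log2), Snai2 and Bcl2 fell by 1.05 and 0.51, and Ccnd1 and Gata3 did not pass. None of these genes answers to Notch alone.

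The classes that handle ligands and receptors hold few genes each, and their counts stand beside the 24.3% higher and 22.0% lower over all genes without being read as a pattern. Among the genes for the cleavage of receptors and ligands, which are not all reported here, calls went both ways. The lower ones included Adam10 (-0.80), the protease of the first cleavage after ligand binding, and the gamma-secretase subunits Aph1c (-1.53) and Psenen (-0.97). Of the 4 ligases for ligand endocytosis 0 were higher and 2 lower, with Neurl1b at -2.95 (edgeR adjusted p = 0.00143) and Mib2 at -0.68. Receptor turnover had 2 higher (Numb and Fbxw7) and 4 lower calls of 9 tested, led by Dtx4, a Deltex ubiquitin ligase, which fell from 135, 115 and 98.6 CPM to 17.1, 11.0 and 15.5 CPM (-2.95, edgeR adjusted p = 5.47e-05). Dtx3 of the same family was at -1.61. Of the 5 tested genes for receptor glycosylation 1 was higher and 2 lower.

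At the DNA, Rbpj itself did not pass, with 179, 226 and 213 CPM under Control-SU and 207, 253 and 276 CPM under Gem-SU (edgeR adjusted p = 0.180). Of the 9 genes of the activation complex Maml1, a coactivator, was higher (0.76), Maml3 and Kat2b were lower (-1.50 and -0.79) and 6 did not pass. Of the 14 genes listed under repressors at RBPJ, 4 were higher, among them Tle4 (1.67), and 3 were lower. The lower ones were led by Tle2, a Groucho corepressor (-2.23, edgeR adjusted p = 9.28e-04). These counts too stand beside the 24.3% higher and 22.0% lower over all genes.

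**Figure D4:**
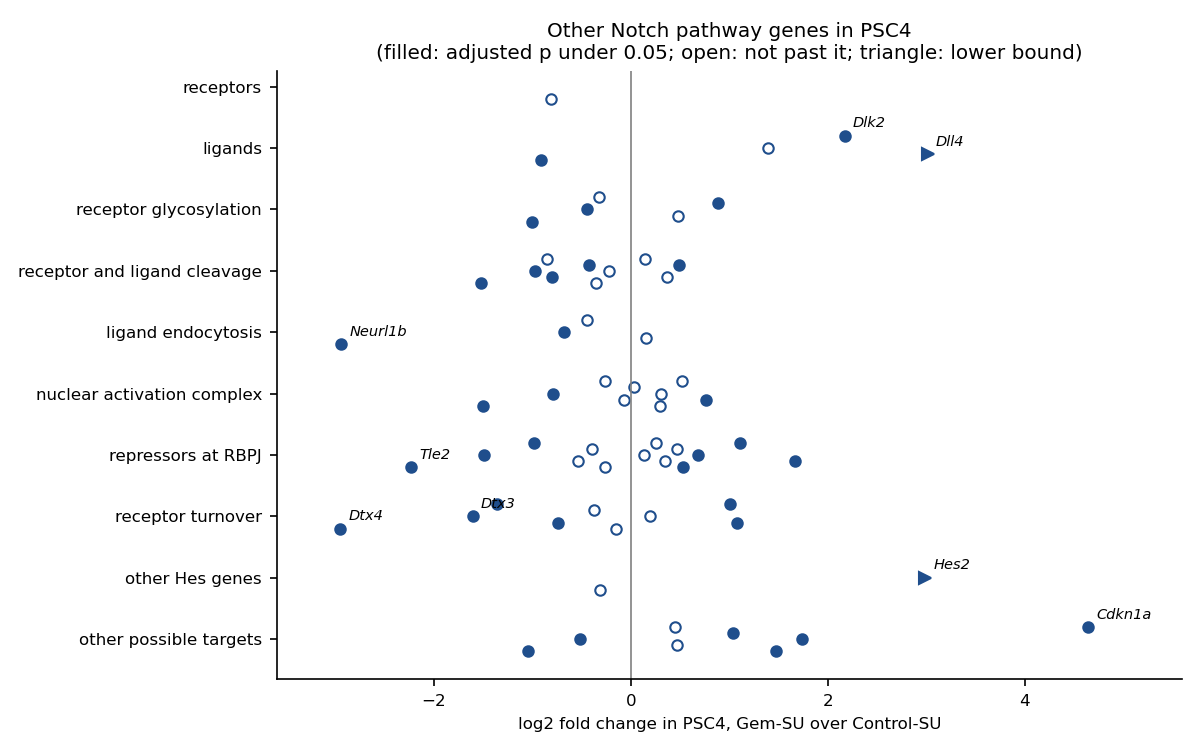
Log2 fold change in PSC4, Gem-SU over Control-SU, of the 66 other pathway genes tested, each point a gene in the row of its class; filled points passed an adjusted p of 0.05 in edgeR, triangles are lower bounds, and the 4 highest and 4 lowest of those that passed are named. Filled points lie on both sides of 0. Of these genes 16 were called higher and 20 lower, beside 24.3% and 22.0% of all genes tested. The 16 include Dll4 and Hes2, drawn as triangles and kept by the low-count filter only through their Gem-SU libraries.

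The lines were then set against each other in their control media. Notch3 transcripts were found mainly in PSC4, while Jag1, Hes1 and Nrarp were far higher in KPC4 and Notch2 overlapped. Of 8 genes tested, 1 was higher and 5 were lower in PSC4 (edgeR quasi-likelihood, adjusted p under 0.05), against 22.3% higher and 20.6% lower among all 13632 genes in both tables that were tested, 42.9% in either direction. Nrarp was kept by the low-count filter only through its KPC4 libraries, so that its place among the 5 supports nothing. With at least 10 counts in every library Notch3 and Nrarp were not tested and 4 genes passed. The lines also differ in the step of the transfer and the medium, which cannot be told apart from the line.

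Notch3 had 16, 1 and 4 counts in the control libraries of KPC4, against 3572 to 4867 counts in PSC4, a log2 difference of 9.19 with a standard error of 0.55 (edgeR adjusted p = 1.75e-08), which became 10.51 without KPC4 Control-PSC-SU replicate 1. Notch1 was at 77.3, 60.0 and 72.3 CPM in KPC4 controls and thus lower in PSC4, by 1.27 on the log2 scale with a standard error of 0.22 (PSC4 minus KPC4 -1.27, edgeR adjusted p = 3.34e-04). Notch2 was at 297, 274 and 235 CPM in KPC4, overlapping with PSC4, and did not pass (log2 difference 0.03, standard error 0.23, edgeR adjusted p = 0.919).

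Jag1 was at 192, 191 and 205 CPM in KPC4 controls, and PSC4 was 24.9-fold lower (edgeR adjusted p = 3.02e-09). With Gem-SU the highest PSC4 library reached 34.0 CPM. Dll1 was at 9.61, 7.48 and 7.02 CPM in KPC4 controls, and PSC4 was lower by a log2 difference of -1.0 (standard error 0.27, edgeR adjusted p = 0.00746). Hes1 was at 51.3, 46.7 and 56.3 CPM in KPC4, and PSC4 was 30.6-fold lower (edgeR adjusted p = 4.73e-07). Nrarp was at 8.12, 6.05 and 9.04 CPM in KPC4 and PSC4 was lower by a log2 difference of -6.14 (edgeR adjusted p = 1.54e-05), which became -8.71 without PSC4 Control-SU replicate 3, the library with its 9 counts. Hey1 had 9 to 15 counts in KPC4 controls and did not pass.

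**Figure D5:**
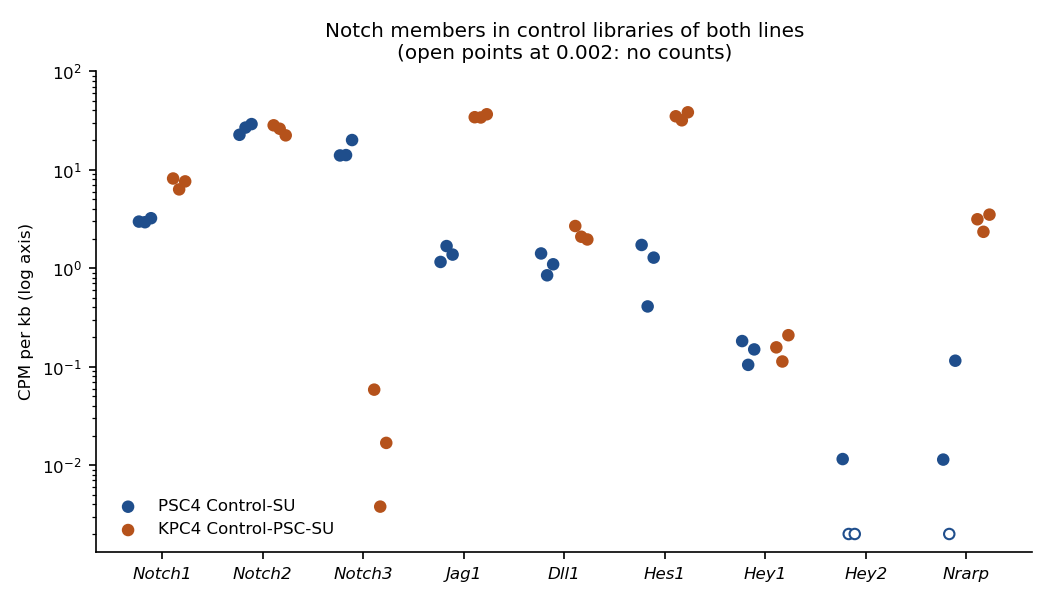
Level of each gene in the control libraries of PSC4 (blue) and KPC4 (orange), in CPM per kb of the longest coding transcript on a log axis; each point is a library and open points mark libraries without a count. The Notch2 points of both lines overlap, Notch3 separates upward in PSC4, and Jag1, Hes1 and Nrarp separate upward in KPC4; Hey2 is shown for PSC4.

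Per kb of transcript the order of the levels differed between the lines. In PSC4 controls Notch2 (26.2 CPM per kb) stood above Notch3 (16.0) and Notch1 (3.04), with no overlap between these neighbours. Jag1 (1.40), Hes1 (1.14) and Dll1 (1.12) followed and overlapped, and Hey1 (0.145), Nrarp and Hey2 came last. With Gem-SU, Notch2 (26.5 CPM per kb) and Notch3 (25.3) overlapped, Notch1 (13.9) stood apart below them, Jag1 (5.50) and Hes1 (5.10) overlapped, and Dll1 (3.17) and Hey2 (2.72) overlapped. In KPC4 controls the highest were Hes1 (35.0 CPM per kb) and Jag1 (34.9), which overlapped, before Notch2 (25.6) and Notch1 (7.36). Nrarp (3.00) and Dll1 (2.24) overlapped below these, and Notch3 (0.0264) came last. With Gem-PSC-SU, Hes1 (63.1 CPM per kb) stood above Jag1 (37.0) and Jag1 above Notch2 (20.1), each without overlap, while Notch1 (6.93) and Dll1 (5.89) overlapped.

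The second comparison asked how the same genes in KPC4 differ after medium from PSC4 cells that had met Gem-SU rather than Control-SU. Dll1 and Hes1 were higher in all Gem-PSC-SU libraries than in all controls, which was so in either direction for 22.8% of all genes tested, but 0 of the 8 genes tested passed an adjusted p of 0.05 in edgeR. Among all 13236 genes tested 0 passed (0%), while 2251 had an unadjusted p under 0.05 and DESeq2 called 806. Same-numbered KPC4 libraries deviated together, and once the number entered the fit as a block, 8.85% of all genes passed, Dll1 among them as the only 1 of the 8 Notch genes. The median log2 fold change of the 8 genes was 0.05, against -0.02 over all genes.

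Dll1 was at 16.7, 26.6 and 19.9 CPM with Gem-PSC-SU, with replicate 2 the highest, against 7.02 to 9.61 CPM in the controls. Its log2 fold change was 1.39 (standard error 0.26, edgeR quasi-likelihood adjusted p = 0.112), and 1.37 with the block (edgeR adjusted p = 0.0179). It also passed in DESeq2 (adjusted p = 1.81e-04), in a fit of all 12 libraries (edgeR adjusted p = 0.0138) and without Gem-PSC-SU replicate 1 (1.54, edgeR adjusted p = 0.0144). The authors' deposited DESeq2 table listed 1.67 with an adjusted p of 1.33e-05, among 713 genes under 0.05.

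Hes1 was at 67.2, 126 and 84.6 CPM with Gem-PSC-SU, all above the control range of 46.7 to 56.3 CPM, and replicate 2 was again the highest. The log2 fold change was 0.85 (standard error 0.25, edgeR quasi-likelihood adjusted p = 0.169). It did not pass with the block (edgeR adjusted p = 0.0635), and passed in DESeq2 (adjusted p = 0.0431) and without Gem-PSC-SU replicate 1 (1.05, edgeR adjusted p = 0.0299). The authors' deposited DESeq2 table listed 0.88 with an adjusted p of 0.0473, also among those 713 genes.

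The receptors and Jag1 overlapped between the KPC4 groups. Notch1 was at 87.2, 47.8 and 62.3 CPM with Gem-PSC-SU, on both sides of its controls (log2 fold change -0.10, standard error 0.23, edgeR adjusted p = 0.857). Notch2 was at 271, 186 and 175 CPM (-0.36, standard error 0.20, edgeR adjusted p = 0.399). Against the same-numbered control it was lower in 3 of 3 pairs, and with the block it did not pass (-0.38, standard error 0.13, edgeR adjusted p = 0.103). Notch3 had 21, 21 and 8 counts, each above its same-numbered control, and did not pass (1.42, standard error 0.88, edgeR adjusted p = 0.433). That value became 2.76 without Control-PSC-SU replicate 1, which held 16 of the control counts, and 0.92 without Control-PSC-SU replicate 2. Jag1 was at 231, 228 and 165 CPM (0.08, standard error 0.18, edgeR adjusted p = 0.846). Nrarp was at 11.8, 4.38 and 7.47 CPM, a spread wider than that of its controls (0.01, standard error 0.36, edgeR adjusted p = 0.990), and Hey1 had 14, 11 and 5 counts. The authors' deposited table listed -0.47 for Notch1, -0.35 for Notch2, 2.90 for Notch3, 0.06 for Jag1 and -0.40 for Hey1 in KPC4, with adjusted p of 0.129 for Notch3.

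Of the other pathway genes 62 were tested in KPC4 and 0 passed. With the block 5 of the 62 did, a share close to the 8.85% of all genes. They were Maml1 (0.74, edgeR adjusted p = 0.0348) and the endocytic adaptor Numb (0.63, edgeR adjusted p = 0.0351) being higher, and Psen2 (-0.93, edgeR adjusted p = 0.0411), Dtx4 (-0.64, edgeR adjusted p = 0.0408) and Tle5 (-0.51, edgeR adjusted p = 0.0463) lower. Dll4 was below the low-count filter and not tested. It had 2, 0 and 1 counts with Control-PSC-SU and 8, 100 and 33 counts with Gem-PSC-SU, at least 16.6-fold higher over the floor of 3 counts, and that bound was 8.41 without Gem-PSC-SU replicate 2. It was named after its values were seen. Gem-PSC-SU replicate 1 was the lowest of its group for Dll4 as for Dll1 and Hes1. The epithelial markers of KPC4 summed to 6173 to 7516 CPM in the controls and 5999 to 7682 CPM with Gem-PSC-SU, overlapping ranges.

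The difference between the responses of the lines was tested as an interaction in a fit of all 12 libraries. Notch1 and Jag1 differed, and the other 6 genes tested did not pass. Among all 13632 genes 9.85% passed, 4.75% with a positive difference (PSC4 minus KPC4) and 5.10% with a negative one. The response of Notch1 was higher in PSC4 by 2.28 on the log2 scale (standard error 0.31, edgeR adjusted p = 0.00100) and that of Jag1 by 1.88 (standard error 0.27, edgeR adjusted p = 0.00156). Both passed in each fit that left out a library and under each other setting tried. For Hes1 the difference was 1.31 with a standard error of 0.51 (edgeR adjusted p = 0.126) and for Dll1 0.11 with a standard error of 0.37 (edgeR adjusted p = 0.880). Notch2 (0.37) and Hey1 (0.77) did not pass either. For Notch3 the difference was -0.75 with a standard error of 0.70, and it became -2.12 without KPC4 Control-PSC-SU replicate 1 and -0.24 without replicate 2 of that group. For Nrarp it was 0.67 with a standard error of 0.99, and it became 0.13 without PSC4 Control-SU replicate 2, 0.21 without replicate 1 and 3.20 without replicate 3 of that group. None of these values passed, and few counts stand behind both genes in 1 of the lines. Cell line and step of the transfer cannot be told apart in this difference.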

How the data were processed

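Per the labels' protocols, a NovaSeq X Plus sequenced the total RNA of 12 cultures. The submitters' processing notes name FastQC, Trim Galore 0.6.10, cutadapt 5.2, Salmon, R 4.5.1, DESeq2 and the build GRCm39; their order and settings are not given in the sources used here. The authors deposited a table of whole-number counts per gene for each line, which may be rounded Salmon estimates. They also deposited, per line, DESeq2 comparisons with log2 fold changes and p-values, per the file headers, used only as the authors' values. The smallest row total was 0 in PSC4 and 11 in KPC4. Each table holds genes that the other lacks, with 14360 in both. A filter on low genes may have been applied to either, and its rule is not stated. Reads of near-identical, overlapping or antisense genes may be split in a way that is not stated.

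Samples were grouped by title. The Notch genes, the other pathway genes, the markers and the tests were chosen with earlier results of these data known. The 73 pathway genes were counted by class, and in each line the 4 largest changes in each direction among those past 0.05, with the replicate block where none passed without it, were named; other pathway genes given as examples were chosen after their values were seen. Symbols came from GENCODE M21 (16329 of 16386 PSC4 and 15265 of 15309 KPC4 identifiers), with Tle5 found by its older RefSeq name. The result of 1 gene of the cleavage class is not reported here by name or value.

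Each line was fitted with edgeR 4.0.16 (limma 3.58.1, R 4.3.3): filterByExpr, TMM, robust quasi-likelihood fit, Benjamini-Hochberg adjustment over all genes, threshold 0.05. Contrasts between lines used 1 fit of all 12 libraries over the 14360 genes in both tables. Standard errors are the log2 fold change over the root of the F statistic. Levels per kb divide CPM by the longest coding transcript in GENCODE M21. A fold against a group at or under 3 counts in each library is a lower bound and covers counting error only. The precision of low genes is limited by their counts, given in the text. Alternatives were the replicate block, DESeq2 1.42.0, its size factors, a fit of unfiltered genes, a stricter minimum of 10 counts in every library, 1 fit over 12 libraries, and leaving out each library. The tests were tried on simulated data.

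Replicate numbers are shared between groups in the labels. The correlation between the group-centred values of libraries that share a number was 0.351, 0.436 and 0.211 in KPC4, taken as pairing from the values alone, and at 0.428, -0.0548 and 0.102 in PSC4, not taken as pairing. Nothing beyond the word biological says how the replicates were separated. The number of per-sample columns not used was 0.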

Additional observations from a re-analysis of the deposited data

Results flagged for a closer look

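The response of Notch1 and that of Jag1 differed between the lines by a test of the difference itself, the interaction over all 12 libraries. For Notch1 the difference of the log2 fold changes (PSC4 minus KPC4) was 2.28 (edgeR quasi-likelihood, adjusted p = 0.00100), from a change that was higher in 3 of 3 Gem-SU libraries of PSC4 and overlapped in KPC4. When single libraries were left out it lay between 2.10 and 2.52 (edgeR adjusted p from 4.39e-04 to 0.00511). For Jag1 the difference was 1.88 (edgeR quasi-likelihood, adjusted p = 0.00156), with a range of 1.73 to 2.05 when single libraries were left out (edgeR adjusted p from 0.00100 to 0.00760). Jag1 started from 7.88 ± 1.47 CPM in PSC4 controls and 196 ± 8.25 CPM in KPC4 controls (SD, n = 3 each), so that the line with the lower level had the larger change. For Notch1 these levels were 28.9 ± 1.47 and 69.9 ± 8.94 CPM. Dll1 and Hes1 were also lower in PSC4 controls, but their differences of response did not pass. These were 0.11 for Dll1 (edgeR adjusted p = 0.880) and 1.31 for Hes1 (edgeR adjusted p = 0.126). A link between control level and response was not tested.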

How the results depend on the processing

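In PSC4, 6 of the Notch genes passed in the main test and 4 to 6 under the alternatives, 4 in the single fit of all 12 libraries, which does not hold Hey2. Losses came from Notch3, as given above, and from Hey2 not being tested in that fit or with at least 10 counts in every library. In KPC4 the number that passed was 0 in the main test, 1 under the replicate block, 2 in DESeq2 and 1 when all 12 libraries entered a single fit. It lay between 0 and 2 when single libraries were left out (2 without Gem-PSC-SU replicate 1), and the cause was not tested. The difference between the lines kept 2 calls, and the control contrast 6, in all settings tried, except that the latter had 4 with at least 10 counts in every library, where Notch3 and Nrarp were not tested.

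Signs turned only for values that did not pass. KPC4 Nrarp was -0.065 with the replicate block, and Notch2 between the control lines was -0.023 without a low-count filter. When single libraries were left out, the log2 fold change ran from -0.093 to 0.27 for Notch2 in PSC4, and in KPC4 from -0.34 to 0.075 for Notch1, -0.0083 to 0.23 for Jag1, -0.51 to 0.14 for Hey1 and -0.39 to 0.29 for Nrarp. It ran from -0.052 to 0.32 for the Dll1 difference between responses, and between control lines from -0.10 to 0.13 for Notch2 and -0.32 to 0.11 for Hey1.

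Of all genes, 4061 passed in PSC4 without Gem-SU replicate 2, against 6177 in the main test and 7266 with the replicate block, which changed no Notch call there. In KPC4 1171 passed with the block, 806 under DESeq2, 610 in a single fit, and 0 to 1129 with single libraries left out (of Gem-PSC-SU, 1129 without replicate 1 and 1 without replicate 2, and of Control-PSC-SU, 174 without replicate 2). The difference between responses had 1343 calls, 2988 with the block, 2163 under DESeq2 and 610 to 1993 with single libraries left out. Genes with few counts (Hey1, Nrarp in PSC4, Notch3 in KPC4) are limited by counting error.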
